A study of Sus scrofa with 6 samples.

Results

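The Krüppel-like factor (KLF) family was followed through reprogramming of porcine embryonic fibroblasts (PEFs) into induced pluripotent stem cells (piPSCs). The members were 10 KLF genes taken by gene name (KLF2, KLF3, KLF4, KLF5, KLF6, KLF7, KLF9, KLF10, KLF13 and KLF17), out of 17 KLF genes and 18007 genes in the expression table. For 9 of them the table gave the symbol, and KLF4, listed by its identifier ENSSSCG00000005437 alone, was found through an identifier table. KLF proteins are transcription factors that bind GC-rich and CACCC elements through a cluster of zinc fingers at the carboxyl end, and the rest of each protein recruits activators or repressors. KLF4 is a reprogramming factor, and KLF2, KLF4 and KLF5 sustain self-renewal of mouse embryonic stem cells. KLF2 and KLF4 are also known for quiescence of endothelium, KLF3 for repression through CtBP, and KLF9, KLF10 and KLF13 for repression through SIN3A.

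RNA-seq libraries came from 3 PEF lines (PEF5, PEF7 and PEF8), isolated from the ear tip of day 90 embryos of a Longwhite (Large White in the paper) boar and a Meishan sow, and from 3 piPSC lines (piPSC5, piPSC7 and piPSC8), each derived from its same-numbered PEF line. The piPSCs carried lentiviral, doxycycline-inducible Oct4, Sox2, Klf4 and c-Myc (OSKM) with the M2rtTA transactivator, were isolated as colonies in LF2i medium and were grown on mouse feeder cells, whereas the PEFs carried none of these vectors. Each line gave 1 library, so the spread within a group is the spread between lines that share both parents. Values are FPKM, that is, fragments scaled to the length of the gene and to the total of the library, and the totals were between 11010629 and 17836510 fragments. Differences are on the log2(FPKM + 1) scale from a limma fit, and a gene was called when its adjusted p was under 0.05 and its change at least 2-fold.

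Of 10 fibroblast markers, 9 were downregulated after reprogramming, and their summed FPKM fell outside the PEF range of 5872 to 8289 in all piPSCs, at 219 to 423. Of 12 pluripotency factors found in the table, NANOG, ESRRB, SALL4, DPPA2 and ZFP42 stayed under 1 FPKM in all 6 libraries, and the epithelial genes CDH1 and EPCAM did as well. SOX2 and LIN28B lay above all PEF values in every piPSC library, at 0.13 to 3.01 FPKM against at most 0.021 and at 0.28 to 8.90 FPKM against at most 0.037, and SOX2 was also in the vector. Fragments of the Sox2 vector cannot be told apart from endogenous SOX2 in these values, and neither SOX2 nor LIN28B was called. The markers thus matched the piPSC label in part. Endothelial markers summed to at most 2.59 FPKM in any library, and blood cell markers to at most 7.68. Fragments of the Y-linked DDX3Y were found in PEF8 (25.3 FPKM) and piPSC8 (42.5 FPKM) and in no other library, although the lines are described as male. Results were computed without each library in turn, which keeps the other library of the same line. Leaving out line 8 as a whole was not tested. In such bulk samples, fewer cells of a type and less RNA per cell cannot be told apart.

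The zinc fingers are where the family is most alike, and they decide whether fragments can be assigned to 1 member. The fingers covered 243 coding bases in each member, and identity over them ranged from 51.9% to 83.5% among the 45 pairs, with a median of 62.1%. KLF6 and KLF7 formed the closest pair (83.5%), KLF2 and KLF4 shared 79.4%, and KLF9 and KLF17 were the most distant (51.9%). The longest exact run shared by any pair of coding sequences was 33 bases (KLF6 and KLF7), shorter than the reads of 150 bases. The 24 coding bases from the last histidine of the first finger into the second finger show this mixture of shared and private bases. They are from RefSeq transcripts on Sscrofa11.1, in the direction of the gene, with capitals where a base differs from KLF4, and each spans an exon junction, so that its first and last bases lie far apart in the genome.
KLF4 (chr1:248605885-248606822, minus strand): cacacaggtgagaaaccttaccac
KLF2 (chr2:61271345-61271867, minus strand): caTacaggCgagaaGccCtaccac
KLF3 (chr8:30054289-30057034, plus strand): caTacaggAgaAaaaccCtacAaA
KLF7 (chr15:110296010-110339319, minus strand): cacacaggtgagaaGccttaTAaG
KLF9 (chr1:223723826-223747164, minus strand): caTacaggtgaACGGccCtTTcCT
KLF17 (chr6:167177776-167178129, minus strand): cacacaggtgagaGaccCtaTAaA
KLF2 and KLF7 differed from KLF4 at 4 of these 24 bases, KLF17 at 5, KLF3 at 6 and KLF9 at 10.

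Most tested members had lower values in piPSCs. Of the 9 members that passed the filter on low values (mean FPKM of at least 0.5), 2 were downregulated after reprogramming, KLF3 and KLF4, and 0 were upregulated. Over all 12428 genes tested, 16.7% were called lower and 20.2% higher in piPSCs, so 2 of 9 is close to the background. Without the fold threshold, 3 members passed at an adjusted p under 0.05, all lower. By this rule 21.5% of all tested genes were lower. Under voom and the 14 other settings tried, 0 members were called higher as well. The median log2 fold change of the 9 members was -0.84, against 0.20 over all tested genes. A negative value was found for 8 of 9 members, and for 5350 of the 12428 tested genes. Every piPSC value lay below every PEF value for KLF3, KLF4, KLF7 and KLF9, 4 of 9, where 26.8% of all tested genes had this pattern. A shift of the scale bears on these counts: after rescaling the libraries to a median ratio the median of all genes was -0.02, KLF7 and KLF9 joined KLF3 and KLF4, 20.3% of all tested genes were called lower, and the share of all calls that were lower moved from 45.2% to 57.4%.

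**Figure D1:**
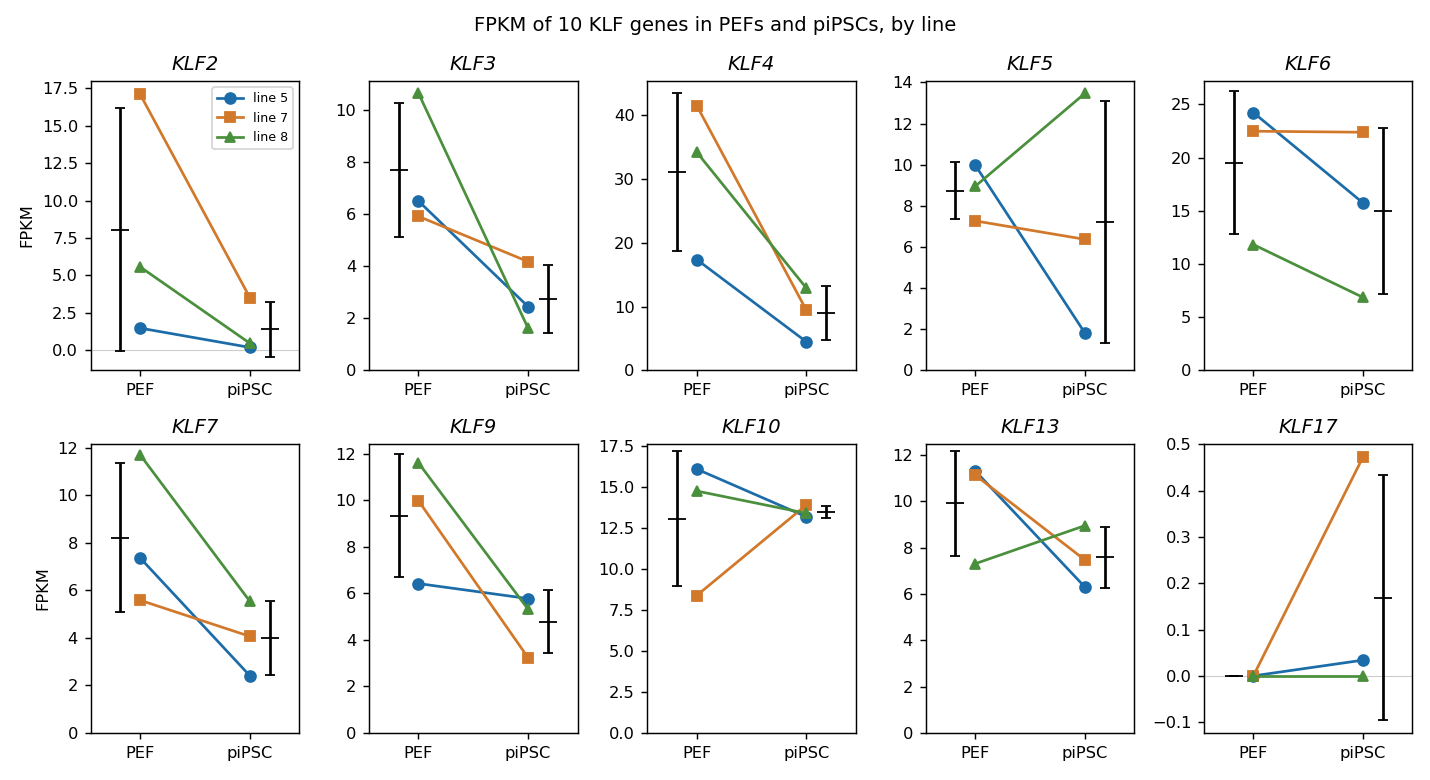
FPKM (vertical axis, a separate scale for each gene) of the 10 KLF genes in PEFs and piPSCs, with lines joining the libraries of 1 line and black bars for the mean ± SD of 3 libraries. KLF2, KLF3, KLF4, KLF6, KLF7 and KLF9 were lower in the piPSCs of all 3 lines, while KLF5, KLF10 and KLF13 went in different directions between lines.

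KLF4 had the highest mean FPKM of the family in PEFs and was downregulated in piPSCs, which carried a Klf4 vector. It lies at chr1:248604822-248609718 on the minus strand, in 5 exons. FPKM of KLF4 for lines 5, 7 and 8 was 17.4, 41.6 and 34.2 as PEFs and 4.45, 9.404 and 12.9 as piPSCs. All piPSC values were below all PEF values, and within the lines FPKM was 3.90-fold, 4.42-fold and 2.66-fold lower in lines 5, 7 and 8. The log2 fold change of KLF4 was -1.71 (SE 0.44, limma adjusted p = 0.0177), and -1.91 relative to the median of all tested genes. The call was lost without PEF7 (log2 fold change -1.46, adjusted p = 0.0601) or without PEF8 (-1.60, adjusted p = 0.0553). Fragments of the Klf4 vector and of mouse feeder cells cannot be told apart from those of the endogenous gene in these gene-level values.

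KLF2, an endothelial and lymphocyte quiescence factor that ERK5 and MEF2 induce, differed more between lines than any other tested member. It lies at chr2:61270714-61273138 on the minus strand, in 3 exons. FPKM of KLF2 for lines 5, 7 and 8 was 1.48, 17.1 and 5.57 as PEFs and 0.191, 3.53 and 0.469 as piPSCs. The highest PEF value was 11.6 times the lowest and the highest piPSC value 18.5 times the lowest, so the groups overlapped, yet each piPSC line was below its own PEF line. The values rest on 46, 498 and 147 fragments in PEFs and on 5, 73 and 9 in piPSCs, and 5 fragments carry a 95% exact Poisson interval of 1.62 to 11.7. The log2 fold change was -1.74 (SE 0.81, adjusted p = 0.114) without pairing, and with the line as a block KLF2 was called lower with the same change (SE 0.30, adjusted p = 0.0125). In that blocked fit, 16.3% of all tested genes were called lower. KLF2 and KLF4 were the 2 members at least 2-fold lower in each of the 3 lines on the FPKM + 1 scale, a pattern that 11.9% of all tested genes had. Without PEF5 the unpaired fit called KLF2 lower (log2 fold change -2.45, adjusted p = 0.0439), and without PEF7 its change shrank to -1.02 (adjusted p = 0.299).

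Part of the immediate early genes were also highest in line 7: of 13 in the table, 7 were highest in PEF7 among PEFs and 12 in piPSC7 among piPSCs. FOS, an AP-1 subunit, stood at 27.03, 123.3 and 8.43 FPKM for lines 5, 7 and 8 as PEFs and at 27.9, 220.1 and 9.32 as piPSCs. The summed FPKM of 13 immediate early genes was 1870 in PEF7 against 1199 and 1300 in PEF5 and PEF8, and 1565 in piPSC7 against 325 and 223 in piPSC5 and piPSC8. KLF2 was highest in the same libraries within each group. KLF4 was highest in PEF7 among PEFs but in piPSC8 among piPSCs. KLF6 and KLF10, also early response genes, were highest in piPSC7 among piPSCs but not in PEF7 among PEFs. There, KLF6 was highest in PEF5 (24.2 FPKM against 22.5 in PEF7), and KLF10 was lowest in PEF7 (8.38 FPKM). The part of line 7 in the KLF2 values was not tested beyond leaving out each library.

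KLF5, which acts in the self-renewal of stem cells and of gut epithelium, showed no common direction. It lies at chr11:45369575-45388299 on the plus strand. FPKM of KLF5 for lines 5, 7 and 8 was 9.99, 7.27 and 8.94 as PEFs and 1.82, 6.37 and 13.5 as piPSCs. PEFs were close to each other, within 1.38 times, whereas piPSC8 was 7.40 times piPSC5. FPKM was 5.49-fold lower in line 5 and 1.14-fold lower in line 7, and 1.51-fold higher in line 8. The log2 fold change of -0.53 (SE 0.56, adjusted p = 0.453) had a 95% interval from -1.87 to 0.81, so a change of more than 2-fold in the lower direction was within it.

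KLF17, a factor of early embryos and germ cells, lies at chr6:167176834-167188418 on the minus strand and was nearly undetected. It had 0 fragments in each of the 3 PEF libraries and 1, 11 and 0 fragments in piPSC5, piPSC7 and piPSC8. The 11 fragments of piPSC7 carry an exact Poisson interval of 5.49 to 19.7 and correspond to 0.473 FPKM. For 0 fragments the same kind of interval reaches 3.69, and the intervals cover counting error only. KLF17 did not pass the filter on low values and was not tested, and no fold is given.

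KLF3, a repressor that recruits CtBP, was downregulated. It lies at chr8:30024830-30060982 on the plus strand, in 6 exons. FPKM of KLF3 for lines 5, 7 and 8 was 6.5, 5.91 and 10.6 as PEFs and 2.44, 4.17 and 1.61 as piPSCs. The groups did not overlap, and FPKM was 2.66-fold, 1.42-fold and 6.62-fold lower in lines 5, 7 and 8. The log2 fold change was -1.23 (SE 0.33, adjusted p = 0.0203), and the call was lost with the line as a block (adjusted p = 0.0537), without PEF8 (adjusted p = 0.0602) and without piPSC5 (adjusted p = 0.0619). A gene on the opposite strand, LOC100510918, overlaps KLF3 in RefSeq, and fragments of both cannot be told apart in unstranded libraries. The corepressors CTBP1 and CTBP2 were not called, at log2 fold changes of 0.07 and -0.18.

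KLF6 and KLF7 are closely related activators, KLF6 an early response gene of injured tissue and KLF7 a factor of neurite growth. FPKM of KLF6 (chr10:66488652-66494904, plus strand) for lines 5, 7 and 8 was 24.2, 22.5 and 11.8 as PEFs and 15.7, 22.4 and 6.85 as piPSCs. The ranges overlapped widely, line 8 was lowest in both groups, and the log2 fold change was -0.44 (SE 0.45, adjusted p = 0.446). FPKM of KLF6 rests on a length of 849 bases, its coding length, so its level against other members is uncertain. FPKM of KLF7 (chr15:110286490-110379145, minus strand) for lines 5, 7 and 8 was 7.36, 5.58 and 11.7 as PEFs and 2.41, 4.06 and 5.54 as piPSCs. The groups of KLF7 were separated by a narrow gap, and its log2 fold change of -0.88 (SE 0.34, adjusted p = 0.069) missed both thresholds. KLF7 was called lower after rescaling to the median ratio (-1.10, adjusted p = 0.0360) or to equal sums (-1.15, adjusted p = 0.0286), and without piPSC8 (-1.10, adjusted p = 0.0456).

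KLF9 and KLF13 are repressors that bind SIN3A, and KLF9 is induced by glucocorticoids and thyroid hormone. FPKM of KLF9 (chr1:223720413-223748621, minus strand) for lines 5, 7 and 8 was 6.42, 9.98 and 11.6 as PEFs and 5.77, 3.23 and 5.31 as piPSCs. The piPSC values were all below the PEF values, but PEF5 and piPSC5 nearly met, and in line 5 the ratio was 1.11. KLF9 passed the adjusted p and not the 2-fold threshold, with a log2 fold change of -0.84 (SE 0.29, adjusted p = 0.0469). Both thresholds were passed after rescaling to the median ratio (-1.07, adjusted p = 0.0229) or to equal sums (-1.11, adjusted p = 0.0183), and without PEF5 (-1.06, adjusted p = 0.0314). The adjusted p of KLF9 ranged from 0.0183 to 0.134 over 15 other settings. FPKM of KLF13 (chr1:143498691-143540563, minus strand) for lines 5, 7 and 8 was 11.3, 11.14 and 7.305 as PEFs and 6.31, 7.47 and 8.95 as piPSCs. KLF13 was lower in lines 5 and 7 and higher in line 8, with a log2 fold change of -0.34 (SE 0.23, adjusted p = 0.25). KLF13 also has an overlapping gene on the opposite strand, LOC102164789.

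KLF10, the TGF-beta-inducible early gene, was the most even member in piPSCs. It lies at chr4:34429923-34436006 on the plus strand. FPKM of KLF10 for lines 5, 7 and 8 was 16.1, 8.38 and 14.7 as PEFs and 13.2, 13.9 and 13.4 as piPSCs. The piPSC libraries were within 1.06 times of each other, and PEF7 alone stood clearly below them. The log2 fold change was 0.09 (SE 0.25, adjusted p = 0.779), with a 95% interval from -0.51 to 0.69, and it became -0.16 with median-ratio rescaling, -0.21 with equal sums and -0.18 without PEF7.

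**Figure D2:**
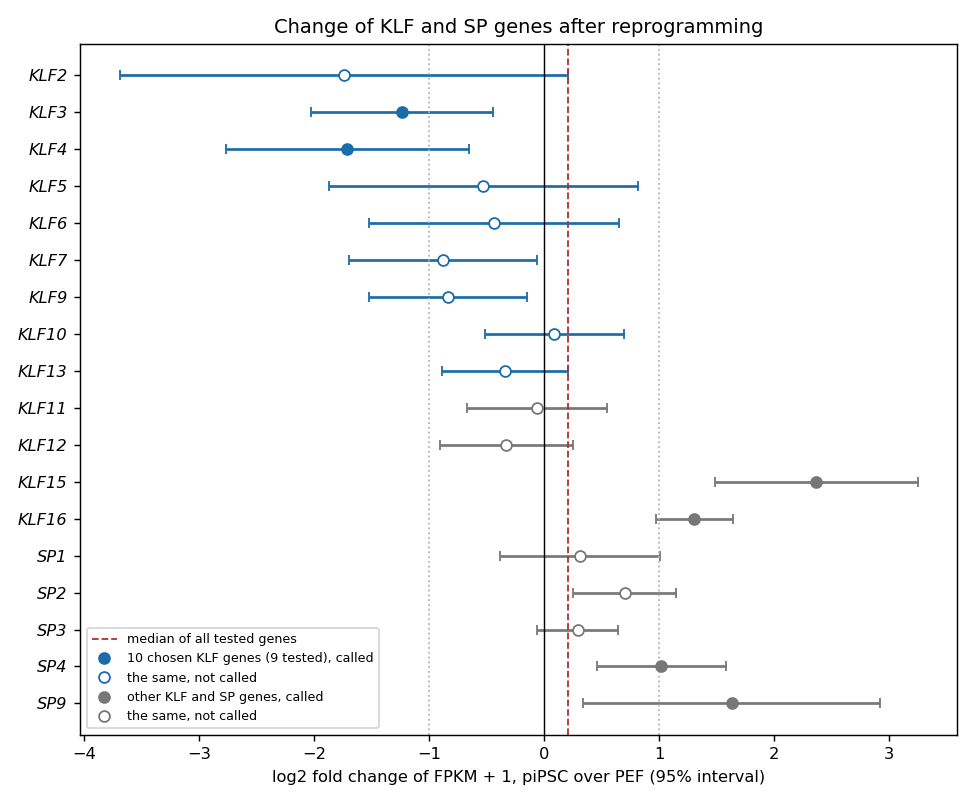
Log2 fold change of FPKM + 1, piPSC over PEF (horizontal axis), with 95% intervals from the limma fit for the 9 tested members (blue) and the other tested KLF and SP genes (grey), filled where called. KLF3, KLF4, KLF7 and KLF9 have intervals below 0, and KLF15, KLF16, SP2, SP4 and SP9 have intervals above 0. The dashed line marks the median of all tested genes at 0.20.

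The order of the members by mean FPKM differed between PEFs and piPSCs. FPKM of KLF6 rests on a length of 849 bases, so its place in both orders is uncertain, as is its weight in the shares and sums. The order of mean FPKM in PEFs was KLF4 (31.1), KLF6 (19.5), KLF10 (13.1), KLF13 (9.92), KLF9 (9.33), KLF5 (8.73), KLF7 (8.21), KLF2 (8.06), KLF3 (7.69) and KLF17 (listed at 0), and the ranges of neighbours overlapped down to KLF3. In piPSCs the order of mean FPKM was KLF6 (15.0), KLF10 (13.5), KLF4 (8.91), KLF13 (7.58), KLF5 (7.22), KLF9 (4.77), KLF7 (4.001), KLF3 (2.74), KLF2 (1.40) and KLF17 (0.169). There, KLF10 and KLF4 were the only neighbours in that order whose ranges did not overlap. KLF4 made up 17.2%, 32.1% and 29.4% of the summed FPKM of the members in PEF5, PEF7 and PEF8, and 8.51%, 12.5% and 18.8% in piPSC5, piPSC7 and piPSC8. These shares overlapped, since piPSC8 lay above PEF5. The share of KLF10 was 15.96%, 6.47% and 12.7% in PEFs and 25.2%, 18.5% and 19.6% in piPSCs, without overlap, while its FPKM averaged 13.1 and 13.5. Over the sum of all 17 KLF genes the shares of KLF10 overlapped, at 5.15% to 12.1% in PEFs and 8.52% to 9.25% in piPSCs. KLF5 held the first rank in piPSC8 with 19.7% and the eighth in piPSC5 with 3.48%.

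The summed FPKM of the 10 members was 115.6 ± 14.3 (SD, n = 3) in PEFs and 65.3 ± 11.7 (SD, n = 3) in piPSCs, and the ranges did not overlap. Over all 17 KLF genes, however, the sums were 145.6 ± 15.4 in PEFs and 150.8 ± 7.57 in piPSCs and overlapped. KLF15 and KLF16, which were not among the members, accounted for this difference in totals: together they made up 16.2% to 21.0% of the summed FPKM of all KLF genes in PEFs and 49.3% to 61.8% in piPSCs. The FPKM of all genes also summed higher in piPSCs, to between 420498 and 437853, against 337074 to 348943 in PEFs. The KLF sums were not rescaled for this, so their overlap holds only for FPKM as listed. These sums are descriptions and were not tested.

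**Figure D3:**
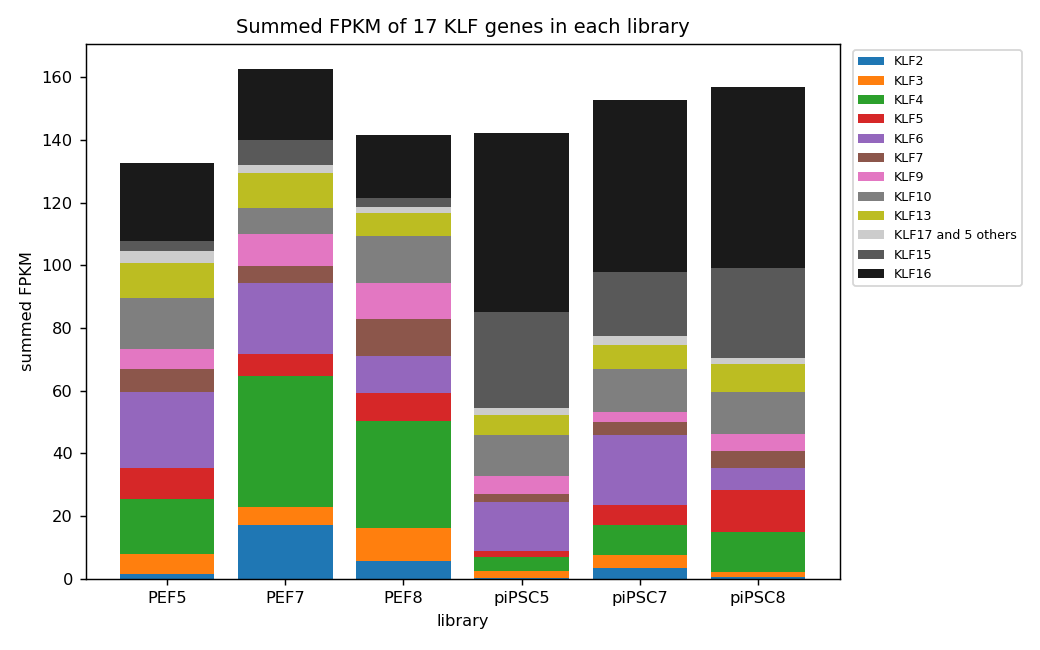
Summed FPKM (vertical axis) of the 17 KLF genes in each library, stacked by gene, with KLF17 and 5 low genes (KLF1, KLF8, KLF11, KLF12 and KLF14) combined. The 10 members shrink from between 101 and 129 FPKM in PEFs to between 52.3 and 75.0 in piPSCs, while KLF15 and KLF16 (dark, on top) grow.

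Of the 7 other KLF genes in the table, 4 were tested, 2 of them were upregulated and 0 downregulated. The shares over all tested genes were 20.2% higher and 16.7% lower. FPKM of KLF15, a glucocorticoid-responsive regulator of metabolism in liver and muscle, for lines 5, 7 and 8 was 3.16, 8.19 and 2.84 as PEFs and 30.6, 20.5 and 28.6 as piPSCs. The log2 fold change of KLF15 was 2.37 (SE 0.37, adjusted p = 0.00276), higher in 3 of 3 lines. FPKM of KLF16, a SIN3A-binding relative of KLF9 and KLF13, was 24.7, 22.4 and 20.1 in PEFs and 57.3, 54.9 and 57.9 in piPSCs, with a log2 fold change of 1.31 (SE 0.14, adjusted p = 0.000788). A gene on the opposite strand, LOC110259663, overlaps KLF16. KLF11, the closest relative of KLF10, and KLF12, a CtBP-recruiting relative of KLF3, were at 0.54 to 1.29 and 0.64 to 1.94 FPKM and were not called (adjusted p = 0.856 and 0.285). KLF1, KLF8 and KLF14 were below the filter, at no more than 0.66 FPKM in any library.

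SP proteins share the zinc fingers and the GC-box target of the KLF proteins. Of 9 SP genes, 5 were tested, 2 were called higher and 0 lower, against 20.2% and 16.7% of all tested genes. SP4 was at 0.98, 0.44 and 0.57 FPKM in PEFs and 2.39, 2.75 and 1.92 in piPSCs (log2 fold change 1.02, adjusted p = 0.0119), and SP9 at 0, 0.15 and 0.17 against 3.20, 5.52 and 0.45 (1.63, adjusted p = 0.0419). The call of SP9 was lost with the line as a block (adjusted p = 0.0536), and without any single library other than piPSC8. Without PEF7, PEF8 or piPSC7 no SP gene was called. SP2 passed the adjusted p with less than a 2-fold change (0.70, adjusted p = 0.0199), and the ubiquitous SP1 and SP3 were not called, at 0.31 and 0.29. SP5, SP6, SP7 and SP8 were below the filter.

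Genes that act with or on KLF proteins were called in both directions, as were all tested genes (20.2% higher and 16.7% lower). Of 10 cofactors, 1 was called higher, the histone deacetylase HDAC2 (log2 fold change 1.85, adjusted p = 0.000517), and 0 lower, whereas SIN3A was at 0.61 (adjusted p = 0.0251), under 2-fold. Of 5 ubiquitin ligases that act on KLF proteins, FBXW7 was upregulated (1.43, adjusted p = 0.00368) and FBXO32 downregulated (-2.03, adjusted p = 0.0111). Among 10 genes of the LIF and ERK5 inputs, which lead to KLF4 and KLF2 in mouse stem cells and endothelium, 2 were higher and 2 lower. The LIF receptor LIFR rose from 0.15 to 0.94 FPKM in PEFs to 5.39 to 21.7 in piPSCs (2.87, adjusted p = 0.00431). MEF2C rose (1.76, adjusted p = 0.0051), while MEF2D fell by 1.55 on the log2 scale (adjusted p = 0.000788). The kinase JAK1 was the other gene called lower (-1.15, adjusted p = 0.0071), and without piPSC5 its change fell under 2-fold (-0.91, adjusted p = 0.0138). The ERK5 gene MAPK7 passed the adjusted p with less than a 2-fold change (-0.80, adjusted p = 0.00618), and STAT3 was not called (-0.16, adjusted p = 0.465).

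Of 7 genes of the TGF-beta input, to which KLF10 responds, 2 were downregulated, TGFBR2 (-2.71, adjusted p = 0.000768) and the inhibitor SMAD7 (-2.07, adjusted p = 0.0133), and 0 upregulated. For this list and those below, the shares over all tested genes were 16.7% lower and 20.2% higher. With the line as a block, TGFB1 of the TGF-beta list was called lower as well (-1.03, adjusted p = 0.0364, against 0.0793 unpaired). With median-ratio rescaling 4 genes of the list were lower, and with equal sums 5, where 20.3% and 21.0% of all tested genes were lower. Of 4 tested genes among the glucocorticoid receptor and its targets, FKBP5 was upregulated (1.97, adjusted p = 0.00185), and NR3C1 (-0.21), TSC22D3 (-0.56) and PER1 (-0.45) were not called. ZBTB16, below the filter, was listed at 0 in all piPSCs and at 0.47 to 0.79 FPKM in PEFs. Of 12 tested immediate early genes, 5 were downregulated and 1, EGR2, upregulated, a call lost without PEF5, without PEF8 or without piPSC5. The largest decreases were in IER3 (-5.93, adjusted p = 0.000217), DUSP1 (-3.36, adjusted p = 0.000928) and IER2 (-2.09, adjusted p = 0.0347). The call of IER2 was lost without PEF5, PEF7, piPSC5 or piPSC8, and without PEF7, piPSC5 or piPSC8 3 genes of the list were called lower.

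Of 5 tested pluripotency factors, MYC (-3.98, adjusted p = 0.00634) and TBX3 (-3.06, adjusted p = 0.0112) were downregulated and 0 upregulated, and MYC lost its call under voom (adjusted p = 0.0662). SOX2 (1.31, adjusted p = 0.0626) and LIN28B (1.80, adjusted p = 0.0667) missed the threshold, and both were called higher with a pseudocount of 0.1 (adjusted p = 0.0376 and 0.0242) and with voom (adjusted p = 0.0254 and 0.0352). SOX2 was also called higher without piPSC8 (1.89, adjusted p = 0.00257), and LIN28B without piPSC7 (2.53, adjusted p = 0.00922). MYC and SOX2, like KLF4, were carried by the vector. FPKM of MYC was 1.42, 1.05 and 0.267 in piPSC5, piPSC7 and piPSC8, from 29, 17 and 4 fragments. How far vector fragments were counted in these values was not tested. Of 3 tested epithelial genes, CLDN6 was downregulated (-2.71, adjusted p = 0.0206), a call lost with the line as a block and without PEF5, PEF8 or piPSC5. The 2 others were not called, and every piPSC value of each lay above its PEF values. The fibroblast genes COL1A1 (-7.32), COL1A2 (-7.09) and LUM (-6.06) had the largest decreases in their list. Both tested trophoblast markers were lower, GATA3 (-1.52, adjusted p = 0.00267) and TFAP2C (-1.001, adjusted p = 0.047), and the call of TFAP2C was lost with the block and without PEF7 or any single piPSC library. The part of the fibroblast markers in the decrease of KLF3 and KLF4 was not tested.

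The sequences upstream of the 3 members with the lowest log2 fold changes are shown. These genes had lower values in piPSCs of every line, as did KLF6, KLF7 and KLF9, whose sequences are not shown. Each covers 250 bases before the more upstream of the start in the table and in RefSeq, read from Sscrofa11.1 in the direction of the gene, with CACCC or GGGTG and the MEF2 box in capitals.
KLF2 (chr2:61273139-61273388, minus strand): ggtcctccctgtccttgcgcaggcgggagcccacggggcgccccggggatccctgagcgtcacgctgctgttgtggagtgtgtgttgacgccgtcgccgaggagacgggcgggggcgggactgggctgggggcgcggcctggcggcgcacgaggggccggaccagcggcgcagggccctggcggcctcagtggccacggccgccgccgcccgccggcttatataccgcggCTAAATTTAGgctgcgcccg
KLF3 (chr8:30024580-30024829, plus strand): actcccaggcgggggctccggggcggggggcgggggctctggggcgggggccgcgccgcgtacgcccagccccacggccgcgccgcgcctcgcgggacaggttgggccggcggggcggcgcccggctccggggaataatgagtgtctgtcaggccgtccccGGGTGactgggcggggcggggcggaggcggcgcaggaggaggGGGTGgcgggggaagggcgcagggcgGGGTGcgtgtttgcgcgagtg
KLF4 (chr1:248609719-248609968, minus strand): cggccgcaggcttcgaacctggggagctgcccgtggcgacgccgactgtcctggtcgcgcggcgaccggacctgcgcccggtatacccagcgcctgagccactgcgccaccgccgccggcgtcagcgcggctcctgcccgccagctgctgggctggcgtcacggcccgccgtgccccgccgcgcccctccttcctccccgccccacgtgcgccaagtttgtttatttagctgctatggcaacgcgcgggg
The GC content was 75.6% for KLF2, 81.2% for KLF3 and 74.4% for KLF4, against a median of 58.0% over 13892 such windows. KLF3 held 3 matches to CACCC or GGGTG, and KLF2 and KLF4 held 0. Over all windows 55.3% had a match, as did 7 of the 10 members. GGGCGG or CCGCCC, the GC box, was present in 47.3% of all windows and in 9 of 10 members, with 8 matches for KLF3, 3 for KLF2 and 1 for KLF4. The MEF2 box was found in 2.34% of windows and in 1 member, KLF2, and the CArG box in 1.37% and in 0 members. TATAAA or TTTATA was found in 8.44% of windows and in 0 members. Motifs were searched on both strands, and a match is a description of letters in the window. None of the motifs searched was common to KLF2, KLF3 and KLF4 apart from the GC box.

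**Figure D4:**
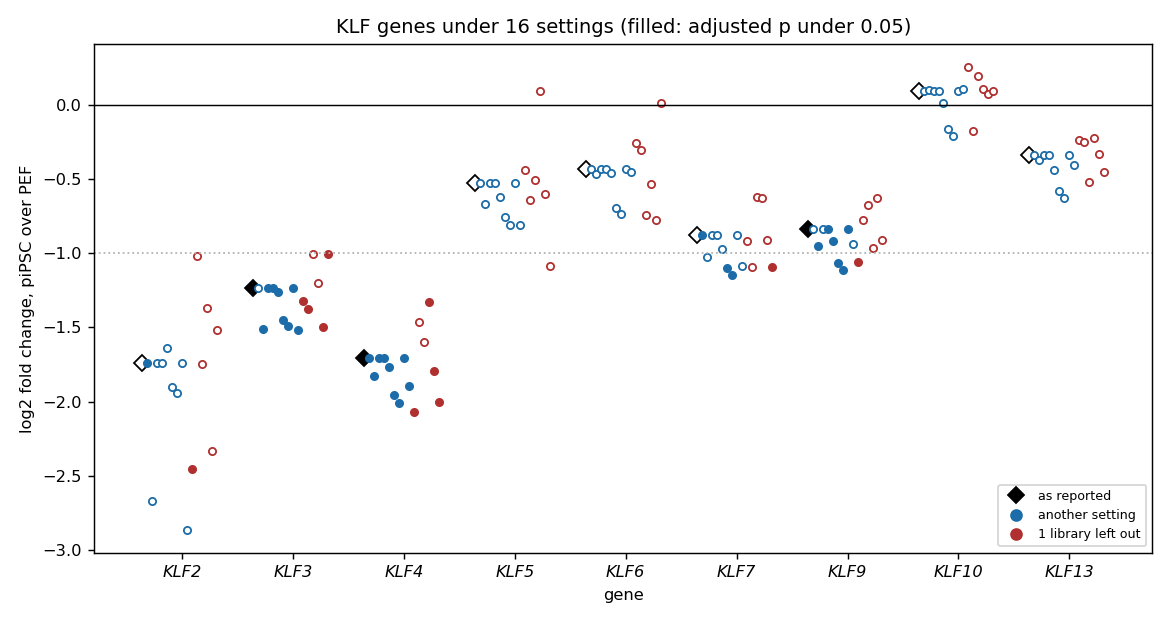
Log2 fold change, piPSC over PEF (vertical axis), of the 9 tested members under 16 settings, with diamonds for the values given above, blue for another scaling, filter or model and red where 1 library was left out, filled where the adjusted p was under 0.05. KLF2, KLF3, KLF4, KLF7, KLF9 and KLF13 stayed below 0 under all 16 settings, while KLF5, KLF6 and KLF10 crossed 0 under at least 1.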

How the data were processed

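Poly-A RNA-seq libraries (NEBNext Ultra, 150 bp paired-end reads) of 3 PEF and 3 piPSC lines were analysed (2 further piPSC lines of the study, piPSC-A1 and -D1, not used here). The authors deposited FPKM per gene, and the submitters' processing notes name HISAT2 2.1.0, Bowtie2 2.2.3, HTSeq 0.6.0 and Sscrofa11.1, without roles. Given a length fitted to each gene, the FPKM of all 18007 genes, of which 0 were at 0 in all libraries, gave whole fragments within 0.002, and these fragments were used for depth and for a voom alternative. Of the fragments, 98.9% to 99.3% lay on genes of the table. The groups were compared with limma 3.58.1 in R 4.3.3 (lmFit, eBayes with a trend) on log2(FPKM + 1). Genes entered when their FPKM averaged 0.5 or more (12428 genes), and the 2-sided p-values were adjusted by Benjamini-Hochberg over all of them. The statistics section of the study names unpaired tests, and its expression comparison set each piPSC line against its own PEF line. The fit here is unpaired, with a block for the line as the alternative. The fit was also run on simulated fragments that held no differences between lines, and the outcome is not given here. No permutation test of single genes is given, because its smallest exact p is 0.1 here.

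The libraries are paired by cell line, as the study describes. After subtracting each group's mean, same-numbered libraries correlated at 0.0921, 0.0946 and 0.0800, and others at -0.12 to 0.055, and the blocked value is given in the text where it changed a call of a member or a listed gene. Lines, not repeated cultures, are the replicates.

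Named genes were the 10 members, the other KLF and SP genes, and up to 3 called genes with the largest change from each further list. Others (such as FOS, JAK1, TGFB1, SOX2, LIN28B, SIN3A, CTBP1, STAT3, EGR2 and DDX3Y) were chosen after their values were seen. The members and lists were chosen with earlier results of these data known. Sequences came from RefSeq on Sscrofa11.1, and intervals were computed with scipy 1.17.1. Genes of the lists missing from the table by symbol, such as POU5F1 and LIN28A, were not used here.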

Additional observations from a re-analysis of the deposited data

Results flagged for a closer look

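For 3 members the lines went in opposite directions, and the differences between the lines were not tested, since each line gave 1 library per group. The log2 ratio of piPSC to PEF for KLF5 was -1.96 in line 5, -0.17 in line 7 and 0.54 in line 8, so the highest and the lowest were 2.50 apart. For KLF13 it was -0.75, -0.52 and 0.26 in lines 5, 7 and 8, a distance of 1.015. For KLF10 it was -0.27, 0.67 and -0.13, a distance of 0.94.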

How the results depend on the processing

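Of 135 recomputed log2 fold changes of the 9 tested members, 111 kept their direction and their side of the threshold, 13 lost an adjusted p under 0.05, 6 gained one and 5 changed sign. The cause was not tested. With the line as a replicate block, KLF2 (-1.74, adjusted p = 0.0125) and KLF7 (-0.88, adjusted p = 0.0433) gained and KLF3 (-1.23, adjusted p = 0.0537) and KLF9 (-0.84, adjusted p = 0.0757) lost it, 1 SP gene was called higher and 0 epithelial genes, 1 trophoblast marker and 3 TGF-beta genes lower, and no other member's call changed. KLF9 also lost it with no filter on low values (-0.84, adjusted p = 0.0759) and with voom (-0.94, adjusted p = 0.0568). After rescaling to the median ratio, 4 members were called lower, with KLF7 at -1.10 and KLF10 at -0.16. After rescaling to equal sums, 4 were called lower, with KLF7 at -1.15, KLF10 at -0.21 and SP3 at -0.018. With quantile normalization KLF11 became 0.075. In the fits without 1 library, 1836 to 2075 of 12261 to 12471 tested genes were called lower. Leaving out 1 library gave 0 to 4 members called lower (0 without PEF8, 1 without PEF7 or piPSC5, 4 without PEF5), with log2 fold changes of -2.45 to -1.02 for KLF2, -1.50 to -1.003 for KLF3, -2.07 to -1.33 for KLF4, -1.08 to 0.095 for KLF5, -0.78 to 0.0089 for KLF6, -1.10 to -0.62 for KLF7, -1.06 to -0.63 for KLF9, -0.18 to 0.25 for KLF10 and -0.22 to 0.063 for KLF11. It gave 0 to 2 SP genes, 0 to 1 immediate early genes and 0 to 1 pluripotency factors called higher, and 1 to 2 LIF and ERK5 genes, 3 to 5 immediate early genes, 0 to 1 epithelial genes and 1 to 2 trophoblast markers called lower. Among the lists, equal sums left 1 other KLF gene and 1 SP gene higher and gave 5 TGF-beta genes and 1 cofactor lower, the median ratio gave 1 SP gene higher and 4 TGF-beta genes and 1 cofactor lower, and no filter gave 1 SP gene higher. A pseudocount of 0.1 or voom gave 1 cofactor lower and 2 pluripotency factors higher, quantile normalization 1 pluripotency factor higher and 1 trophoblast marker lower, and a mean FPKM of at least 1 gave 1 trophoblast marker lower. With all 17 KLF genes in the sum, which enlarges it, the mean piPSC shares were 1.82% for KLF3, 5.83% for KLF4, 10.0% for KLF6, 2.62% for KLF7, 3.18% for KLF9, 8.96% for KLF10 and 5.01% for KLF13. Depth limits KLF2 and KLF17, which rest on few fragments in piPSCs.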
